A study of Mus musculus with 8 samples.

Results

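The activity-dependent immediate early genes described here were Fos, Fosb, Junb, Egr1, Egr2, Egr3, Egr4, Arc, Npas4 and Nr4a1. Every non-control probe that carried 1 of these 10 gene names on the array was taken, which gave 12 probes out of 41174, or 10 gene names out of 27373. Junb and Egr3 had 2 probes each, and the probes of Fos and Egr2 were printed as 10 spots each. Hippocampal RNA was measured in 4 BTBR mice (BTBR T+ Itpr3tf/J, an inbred strain used as a model of autism) and in 4 B6 mice (C57BL/6J, wild type, the control strain), 1 mouse per single-color Agilent array. All 8 mice were males aged 5 months that had received no drug, and the tissue was the whole hippocampus, frozen after dissection. C57BL/6J also stands in the background label of the BTBR mice, whose title, source and genotype name the BTBR strain. Replicates 1 and 2 of both strains were hybridized on slide 1, and replicates 3 and 4 on slide 2. The groups compared are inbred strains and not carriers of a single variant.

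Immediate early genes are transcribed within minutes of neuronal firing or growth factor signals, from transcription factors already present in the cell, without new protein synthesis. Calcium entry and kinase cascades act on CREB at cAMP response elements and on serum response factor, and the induced mRNAs are short-lived. In the hippocampus their level is therefore widely used as a marker of recent activity, and Arc, Egr1 and Npas4 take part in synaptic plasticity and memory.

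The promoters of 4 members are shown as examples that hold the letters of the core of the cAMP response element. Fos, Fosb and Nr4a1, like Egr4 and Junb, which are not shown, are genes whose 4 highest mice were the same. Those of Npas4 were not. All 6 promoters searched hold these letters, so the letters do not tell these genes apart. The sequences are the 250 bases before the transcription start, 5′ to 3′ on the coding strand, from RefSeq on GRCm38.p6. Fos is at chr12:85473640-85473889 on the plus strand, Fosb at chr7:19310046-19310295 on the minus strand, Nr4a1 at chr15:101266596-101266845 on the plus strand and Npas4 at chr19:4989972-4990221 on the minus strand. Capitals mark the CREB core site TGACG or its reverse complement CGTCA.
Fos: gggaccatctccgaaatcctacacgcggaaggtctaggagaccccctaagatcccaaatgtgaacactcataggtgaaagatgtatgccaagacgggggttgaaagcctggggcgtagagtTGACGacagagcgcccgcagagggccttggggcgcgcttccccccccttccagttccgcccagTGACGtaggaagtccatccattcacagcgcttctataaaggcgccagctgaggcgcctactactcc
Fosb: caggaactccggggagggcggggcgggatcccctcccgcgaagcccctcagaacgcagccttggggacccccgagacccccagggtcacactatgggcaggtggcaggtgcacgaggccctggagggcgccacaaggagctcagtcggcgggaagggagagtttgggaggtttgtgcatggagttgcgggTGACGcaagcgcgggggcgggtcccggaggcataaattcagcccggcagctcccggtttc
Nr4a1: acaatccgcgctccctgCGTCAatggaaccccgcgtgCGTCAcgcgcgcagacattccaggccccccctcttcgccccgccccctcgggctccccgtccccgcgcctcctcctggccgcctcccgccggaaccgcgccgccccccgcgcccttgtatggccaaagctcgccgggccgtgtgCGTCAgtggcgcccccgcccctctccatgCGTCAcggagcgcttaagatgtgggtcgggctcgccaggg
Npas4: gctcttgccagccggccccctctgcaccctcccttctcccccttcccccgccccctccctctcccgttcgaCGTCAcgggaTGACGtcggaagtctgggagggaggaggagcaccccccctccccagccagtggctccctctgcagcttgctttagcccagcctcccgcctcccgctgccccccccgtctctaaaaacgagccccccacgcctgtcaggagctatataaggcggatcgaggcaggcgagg

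The RefSeq table held 7 of the 10 members. Egr2 had 5 starts there and was not searched, and Arc, Egr1 and Egr3 were not matched. TGACG on either strand was found in 6 of the 6 promoters with 1 start (Egr4, Fos, Fosb, Junb, Npas4 and Nr4a1), against 17.8% of the 32851 windows of the same length in the table. Nr4a1 held 4 matches, the closest from -40 to -36 relative to the start. Fos, Egr4 and Npas4 held 2 each, and Fosb and Junb held 1 each. The full palindrome TGACGTCA, which contains that core, was in 0 of 6 and in 1.55% of all windows. The serum response element core (the CArG box, both strands) was also in 0 of 6 and in 1.47% of all windows. Bases outside these windows, such as those farther upstream, were not searched. The counts of 0 of 6 therefore do not show that these genes lack either sequence. The letters GCGNGGGCG, the binding site of the EGR factors, were found on either strand in 2 of 6 (Fosb and Nr4a1), against 4.7% of all windows. TATAA on the coding strand was in 3 of 6 (Egr4, Fos and Npas4), against 16% of all windows. These matches describe the letters of the windows and say nothing of which factor was bound in these mice.

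All values below are normalized log2 intensities, so that 1 unit is a factor of 2, and differences are BTBR minus B6. The 12 probes all passed the filter on dim probes, under which 27982 probes were tested. Of the 12, 11 were well above background on all 8 arrays, the Egr3 probe A_51_P437198 on 3 of 4 arrays of each strain, and 0 were saturated. The share of all probes well above background ran from 56.8% (B6 replicate 1) to 71.9% (B6 replicate 3), and the median intensity of an array from 378 to 489. The number of mice limits the precision. Limma's test with Benjamini-Hochberg adjustment over all probes called 2129 probes between the strains, which is 7.61% of those tested.

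None of the 10 immediate early genes differed between BTBR and B6 by more than the spread between mice allowed to be called. Limma called 0 of the 12 probes (lowest adjusted p = 0.507), and 0 had an unadjusted p under 0.05, against 18.5% of all probes. The strains' values overlapped in all 12 probes, while they did not overlap in 14.2% of all probes. In an exact permutation test of each probe, 2-sided, p ran from 0.0857 to 1, where 0.0286 is the smallest value that 4 against 4 mice can give. The BTBR mean was higher for 9 probes and lower for 3, none of them called, where 3.31% of all probes were called as higher and 4.3% as lower, with a median difference of 0.12 over the 12 probes and 0.01 over all probes. Of the 12 probes, 11 (all but the dim Egr3 probe A_51_P437198) had a larger spread between mice of 1 strain than the median probe.

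**Figure D1:**
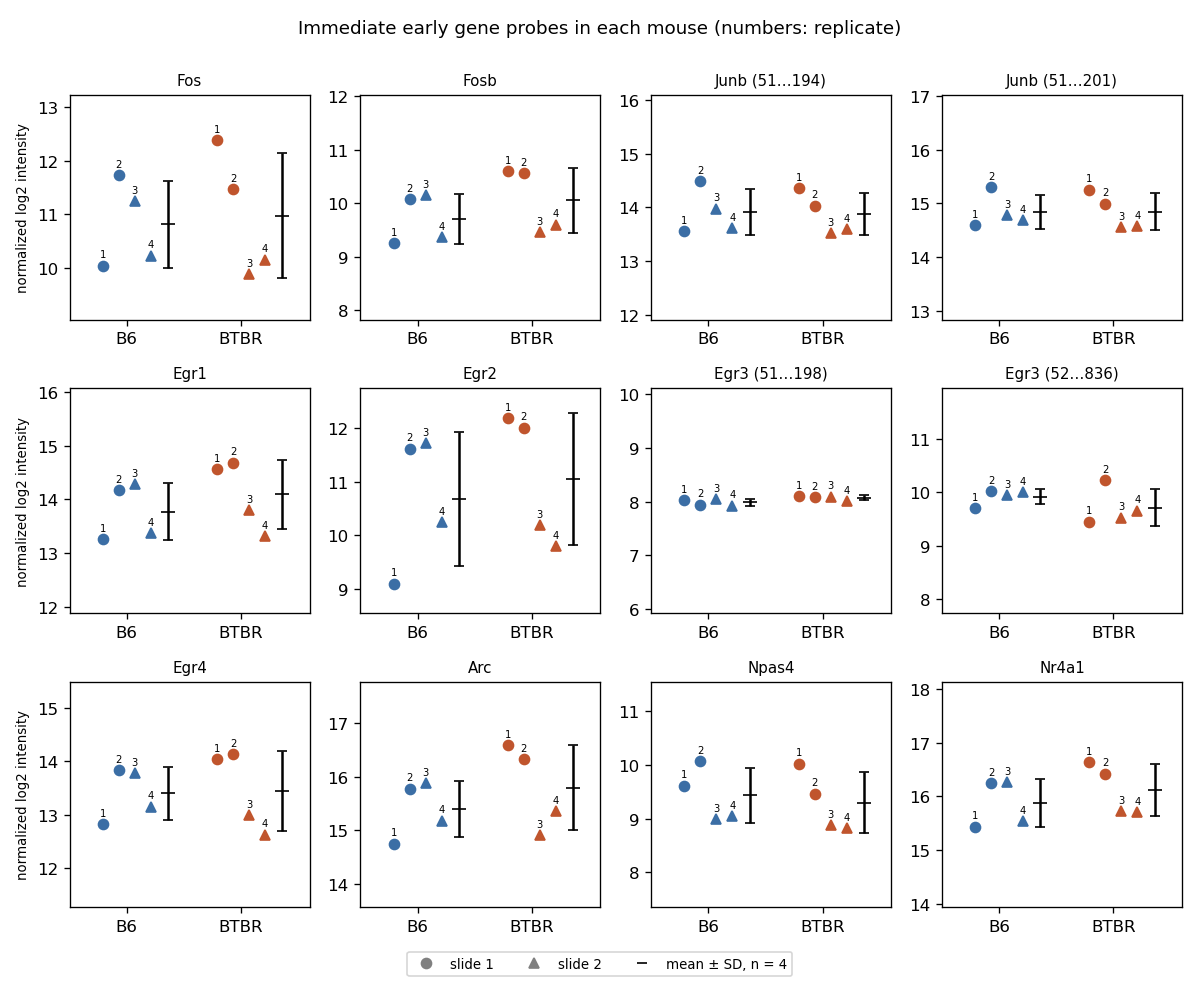
Normalized log2 intensity (y axis, the same span in every panel) of each immediate early gene probe in each mouse, B6 in blue and BTBR in orange, with replicate numbers, circles for slide 1 and triangles for slide 2. Bars give mean ± SD (n = 4), and in most panels B6 replicates 2 and 3 and BTBR replicates 1 and 2 lie above the other mice.

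Fos encodes the classic partner of Jun proteins in the AP-1 transcription factor. Its probe (A_52_P262219, mm9 chr12:86817900-86817959) read 10.04, 11.74, 11.24 and 10.23 in B6 replicates 1 to 4 and 12.38, 11.47, 9.88 and 10.16 in BTBR replicates 1 to 4. Both the highest and the lowest of the 8 values were in BTBR mice, and 2 mice of each strain stood over 1 unit above the rest. The B6 mean was 10.81 ± 0.81 (SD, n = 4). The BTBR mean was 10.97 ± 1.17 (SD, n = 4), a difference of 0.16 ± 0.59 (SE, limma adjusted p = 0.922). That difference ran from -0.31 to 0.52 with 1 mouse left out. The range over the mice was 5.65-fold. The 10 spots of the probe varied far less on an array, with an SD between spots of 0.0948 to 0.208 over the 8 arrays and 3 spots flagged as outliers.

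Fosb, whose stable splice product accumulates with repeated activity, ran from 9.26 to 10.15 in B6 (9.26, 10.08, 10.15 and 9.36) and from 9.46 to 10.59 in BTBR (10.59, 10.56, 9.46 and 9.60). The difference was 0.34 ± 0.32 (SE, limma adjusted p = 0.654), and 0.16 to 0.54 with 1 mouse left out. Junb encodes an AP-1 partner, and its 2 probes overlap on the minus strand (mm9 chr8:87500843-87500902 and chr8:87500881-87500940), so they read partly the same sequence. A_51_P159194 read 13.56, 14.49, 13.98 and 13.61 in B6 and 14.35, 14.03, 13.52 and 13.59 in BTBR, a difference of -0.03 ± 0.24 (SE). A_51_P159201 read 14.59, 15.30, 14.78 and 14.68 in B6 and 15.26, 14.99, 14.55 and 14.57 in BTBR, a difference of 0.01 ± 0.20 (SE). For Junb the highest value was in B6 replicate 2 and the strain means were nearly equal on both probes. With 1 mouse left out the 2 differences ran from -0.19 to 0.16 and from -0.13 to 0.16.

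The EGR genes encode zinc finger transcription factors. Egr1, known in memory research as Zif268, read 13.26, 14.17, 14.29 and 13.38 in B6 and 14.57, 14.69, 13.80 and 13.32 in BTBR, a difference of 0.32 ± 0.35 (SE, limma adjusted p = 0.704, and 0.12 to 0.58 with 1 mouse left out). Egr2, which is also required for Schwann cell myelination, read 9.09, 11.61, 11.72 and 10.24 in B6 and 12.19, 12.01, 10.18 and 9.80 in BTBR. Egr2 had the widest range of the members, 3.096 units or 8.55-fold between B6 replicate 1 and BTBR replicate 1, and its strain difference was 0.38 ± 0.72 (SE, limma adjusted p = 0.845). That strain difference ran from -0.15 to 0.79 with 1 mouse left out. The 10 spots of the Egr2 probe per array had an SD between spots of 0.187 to 0.242.

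Egr4 read 12.83, 13.83, 13.78 and 13.15 in B6 and 14.04, 14.13, 12.998 and 12.63 in BTBR, a difference of 0.05 ± 0.37 (SE, limma adjusted p = 0.964). The Egr4 difference ran from -0.18 to 0.32 with 1 mouse left out. Egr3 was read by 2 probes. A_51_P437198, well above background on only 3 of 4 arrays of each strain, lay between 7.92 and 8.10 in all 8 mice after the offset was added, with a difference of 0.09 ± 0.06 (SE). Its other probe, A_52_P440836, which lies 3′ of the first on the plus strand (mm9 chr14:70481979-70482038 against chr14:70478827-70478886), read 9.70, 10.02, 9.95 and 10.003 in B6 and 9.45, 10.22, 9.52 and 9.65 in BTBR. The difference there was -0.21 ± 0.16 (SE, limma adjusted p = 0.586), so the 2 Egr3 probes differed in sign, and neither was called.

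Arc encodes a protein of the postsynaptic side that takes part in the removal of AMPA receptors from synapses. It read 14.75, 15.78, 15.88 and 15.18 in B6 and 16.59, 16.33, 14.91 and 15.36 in BTBR, a 3.57-fold range. The difference of 0.40 ± 0.40 (SE, limma adjusted p = 0.675) ranged from 0.13 to 0.69 with 1 mouse left out. Nr4a1 encodes an orphan nuclear receptor that is induced by cAMP and calcium. It read 15.43, 16.25, 16.26 and 15.53 in B6 and 16.64, 16.42, 15.72 and 15.70 in BTBR, a difference of 0.25 ± 0.28 (SE, limma adjusted p = 0.705, and 0.0805 to 0.39 with 1 mouse left out).

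Npas4 encodes a transcription factor induced by calcium entry in neurons, which regulates inhibitory synapses. It read 9.62, 10.08, 9.00 and 9.05 in B6 and 10.02, 9.46, 8.87 and 8.82 in BTBR. The difference was -0.14 ± 0.32 (SE, limma adjusted p = 0.872), and -0.38 to 0.08 with 1 mouse left out. Its 4 highest values were those of the 4 mice hybridized on slide 1, 2 of each strain.

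**Figure D2:**
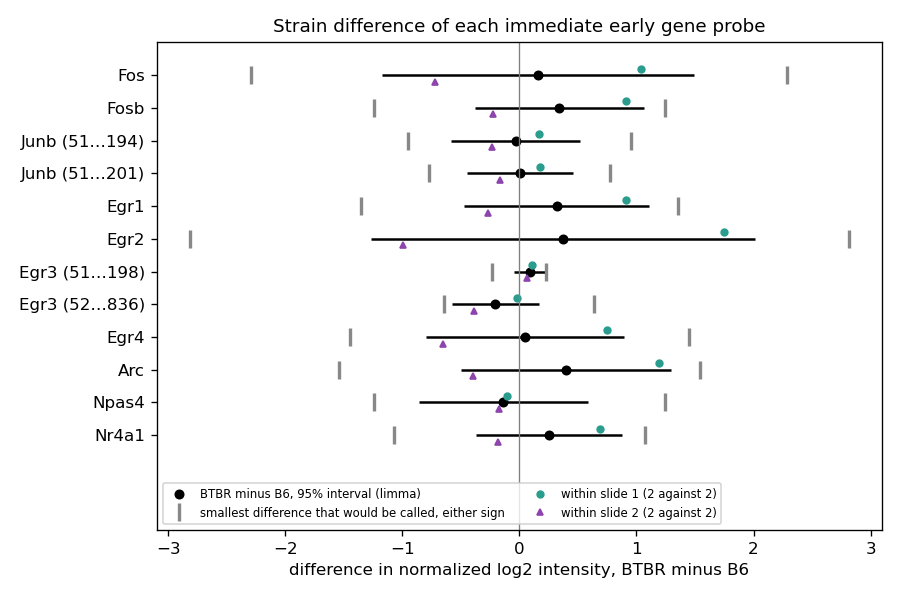
Difference in normalized log2 intensity, BTBR minus B6, for each immediate early gene probe, with its 95% interval from limma (n = 4 per strain), the difference within each slide, and gray ticks at the smallest difference that would have been called given the spread of that probe. Every difference lies inside its ticks, which are at 2.82 for Egr2 and at 0.23 for the dim Egr3 probe.

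The precision of these differences was low for most members. The 95% interval of the strain difference ran from -1.17 to 1.49 for Fos, from -1.26 to 2.02 for Egr2 and from -0.50 to 1.30 for Arc. It was narrower for Junb, from -0.44 to 0.46 on A_51_P159201, and narrowest for the dim Egr3 probe, from -0.05 to 0.22. That limit belongs to this background correction and offset, since under the processed signal the difference of this probe was 0.27 ± 0.16 (SE), which was not called either. Given its own spread, the measured difference of Fos would have had to reach 2.29 units to be called, Egr2 by 2.82, Egr1 by 1.35 and Nr4a1 by 1.07.

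The SD between mice of a strain was 1.24 for Egr2 and 1.005 for Fos, then 0.67 for Arc, 0.63 for Egr4, 0.59 for Egr1, 0.54 for Fosb and Npas4 and 0.46 for Nr4a1. The median SD was 0.54 over the 12 probes and 0.13 over all probes tested. Several marker lists had a median SD close to or above that of the members. It was 0.47 for CA3, 0.50 for cortical neurons, 0.70 for blood, 0.81 for choroid plexus, 1.01 for thalamus and 1.49 for striatum. The SD of 11 of the 12 probes was above that of the median probe, and Egr2 and Fos lay at the 99.9th and 99.7th percentile. The dim Egr3 probe was the exception, at the 3.33rd percentile. The SD was larger among BTBR mice for 9 probes and larger among B6 mice for 3. Each mouse had 1 array, so the SD between mice also holds variation of labeling, array and slide. Replicate spots on the same array do not show that variation.

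**Figure D3:**
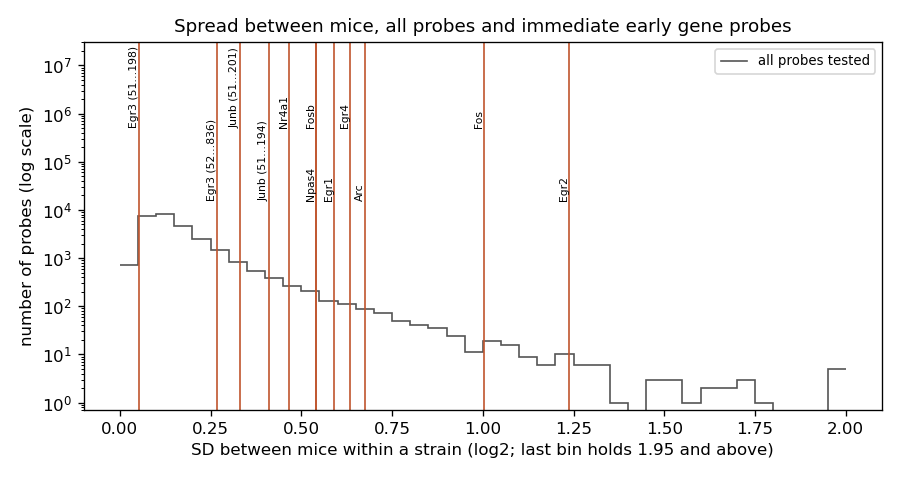
Number of probes (log scale) by the SD between mice within a strain (log2 units) for all 27982 probes tested, with vertical lines at the 12 immediate early gene probes. The lines for Egr2 (1.24) and Fos (1.005) lie in the far right tail, where 93 probes had an SD over 1, and that of the Egr3 probe A_51_P437198 lies at the left edge.

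The high values of most members fell in the same mice. B6 replicates 2 and 3 and BTBR replicates 1 and 2 held the 4 highest values in 9 of the 12 probes, which belong to Fos, Fosb, Junb, Egr1, Egr2, Egr4, Arc and Nr4a1. The exceptions were Npas4 and both Egr3 probes. The same 4 mice were highest in 3.91% of all probes tested (1094). The set of 4 was picked from the member probes, so the 2 shares are a description and their difference supports nothing. The gap between the 4th and the 5th highest mouse was 1.37 for Egr2, 1.01 for Fos and 0.63 for Egr4, and among these 9 probes it was smallest for Junb, at 0.09 on A_51_P159201. The 4 mice are 2 of each strain, and 3 of them were on slide 1 and 1 (B6 replicate 3) on slide 2. The part of the slide in this set was not tested. BTBR replicate 1 had the highest value of all mice in 6 probes and BTBR replicate 2 and B6 replicate 2 in 3 each. B6 replicate 1 had the lowest value in 5 probes.

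Relative to the mean of the 8 mice, the median over the 10 genes was -0.61, 0.33, 0.28 and -0.44 in B6 replicates 1 to 4. It was 0.65, 0.63, -0.42 and -0.42 in BTBR replicates 1 to 4. The labels give no treatment, behavioral test or time of killing that separates these mice. The values describe RNA in whole tissue, in which fewer cells of a type and less RNA per cell cannot be told apart.

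**Figure D4:**
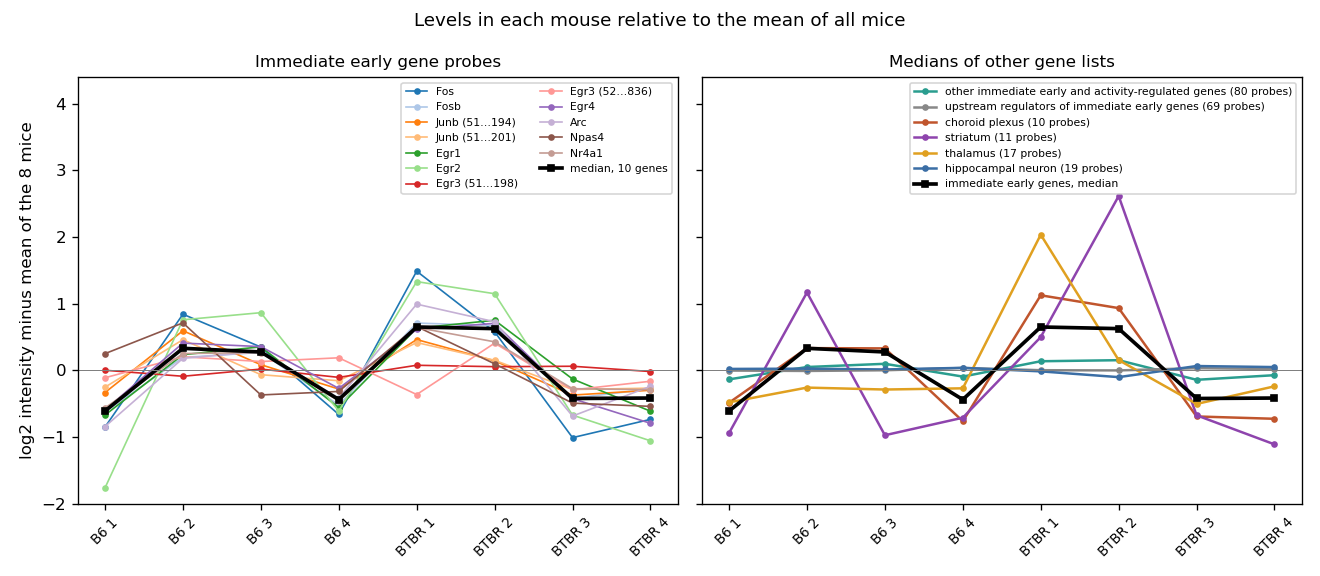
Log2 intensity minus the mean of the 8 mice (y axis) in each mouse (x axis), for the 12 immediate early gene probes (left) and as medians of other gene lists (right), with the median of the 10 genes in black. The black line is high in B6 2, B6 3, BTBR 1 and BTBR 2, and the choroid plexus line is highest in the same 4 mice, up to 1.13 in BTBR 1, while the hippocampal neuron and upstream regulator lines stay near 0.

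Because the strains were hybridized together on both slides, the difference was also taken within each slide, with 2 mice per strain. On slide 1 the BTBR mice were higher for 10 of the 12 probes, by 1.74 for Egr2, 1.19 for Arc and 1.04 for Fos. On slide 2 they were lower for 11 of the 12, with differences of -0.99 for Egr2, -0.40 for Arc and -0.72 for Fos. The sign thus turned between slides for 9 probes. The change of the strain difference between slides was itself not called for any probe, member or not (limma interaction, 0 of 27982 probes, lowest adjusted p of the members 0.469 for Arc, unadjusted p = 0.0171). Fos, Egr2, Arc, Fosb, Egr1, Egr4, Nr4a1 and the Junb probe A_51_P159201 also turned negative when BTBR replicates 1 and 2 were left out, with values of -0.79 for Fos, -0.68 for Egr2 and -0.26 for Arc. These 2 mice had the highest median of the members among the BTBR mice, so that turn follows from their removal and tests nothing.

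The median profile of the members over the 8 mice was also set against those of other genes. Only the 1277 probes with at least the SD of that profile were ranked, which leaves out flatter probes, those of activity-regulated genes among them. In this ranking the closest were Kl, Aqp1, Ace, Copg2os2, Fap and Folr1, with mean absolute differences from it of 0.13 to 0.16 over the 8 mice. All 6 had the same 4 mice highest, which follows largely from ranking by closeness to that profile. Kl, which encodes klotho, read 12.42, 12.96, 13.19 and 12.38 in B6 and 13.70, 13.65, 12.60 and 12.35 in BTBR. Aqp1 encodes a water channel, Ace the angiotensin-converting enzyme and Folr1 a folate receptor, and Kl, Aqp1 and Folr1 are in the list of choroid plexus markers.

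The choroid plexus, the tissue of the ventricles that secretes cerebrospinal fluid, lies against the hippocampus. All 8 markers of its list were measured, on 10 probes, of which 9 were well above background on all 8 arrays, and none was absent. In 10 of the 10 probes the same 4 mice were highest, and 0 were called between the strains. Ttr, its transthyretin gene, named after its values were seen, read 11.88, 12.71, 12.53 and 10.42 in B6 and 13.49, 13.46, 10.98 and 11.31 in BTBR. The log2 of the summed level of the list ran from 14.15 to 15.62 in B6 and from 14.34 to 16.36 in BTBR. Its median relative to the 8 mice was -0.49, 0.33, 0.33 and -0.76 in B6 and 1.13, 0.93, -0.69 and -0.73 in BTBR. The part of this tissue in the levels of the immediate early genes was not tested.

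Other neighboring regions also varied between mice. Striatal markers (8 of 8 genes, 11 probes, log2 sum 15.12 to 17.40 in B6 and 14.71 to 18.68 in BTBR) were highest in BTBR replicate 2, at 2.62 above the mean of the 8 mice, followed by B6 replicate 2, at 1.17. Thalamic markers (9 of 10 genes, Grid2ip not above background, 17 probes, log2 sum 14.43 to 14.47 in B6 and 14.28 to 17.04 in BTBR) were highest in BTBR replicate 1, at 2.04. Striatal markers were at 0.50 in BTBR replicate 1 and at -0.67 or lower in all other mice. In B6 replicate 3, where most of the immediate early genes were high, they were at -0.97. Thalamic markers were at -0.29 in that mouse, within the -0.48 to -0.26 of the B6 mice. In BTBR replicates 1 and 2 the markers of dentate granule cells were at -0.32 and -0.89, those of CA1 pyramidal cells at -0.47 and -0.27 and those of CA3 pyramidal cells at -0.20 and -0.69. In B6 replicates 2 and 3, where most members were also high, they were at -0.15 and 0.19, at -0.06 and 0.09 and at 0.08 and 0.07. The median of the list of markers of hippocampal neurons in general lay between -0.10 and 0.06 in every mouse. Genes of that list did not move together, as 2 named after their values were seen show. Neurod6 read 11.44 and 11.60 in BTBR replicates 1 and 2, against 12.89 to 13.71 in the other mice. Gad2 read 14.84 on A_51_P452977 in BTBR replicate 2, against 13.21 to 13.85 elsewhere. Oligodendrocyte markers were at 0.32, 0.50, -0.10 and -0.42 in BTBR replicates 1 to 4. The part of these markers in the strain differences or in the pattern between mice was not tested.

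A wider list of 57 immediate early and activity-regulated genes, of which 52 could be tested on 80 probes, had 5 called probes, or 6.25% against 7.61% over all probes. The median difference was 0.04 over the 80 probes. The calls fell on 4 genes. Ptgs2, which encodes the inducible cyclooxygenase, was lower in BTBR on both probes, by 0.81 on A_51_P254855 (8.84 to 8.99 against 9.57 to 9.88 in B6, limma adjusted p = 0.000323) and by 0.66 on A_52_P224760. Nab1, a corepressor of EGR factors, was lower by 0.96 on A_52_P318438 but read 0.27 higher on A_52_P301724, which was called as higher only without BTBR replicate 3 (0.34, limma adjusted p = 0.0314). Nptx2, a secreted pentraxin that gathers AMPA receptors, was higher in BTBR (10.54 to 11.57 against 10.03 to 10.38, difference 0.92 ± 0.19 SE, limma adjusted p = 0.0191).

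The remaining called gene was Csrnp1, a nuclear protein, at -0.74 on A_52_P604629 (limma adjusted p = 0.043), while its other probe, A_51_P326015, read -0.03 and was not called. The calls of Ptgs2 and Nab1 A_52_P318438 held under all 24 alternatives, though Nab1 read only -0.35 when it took the median of its probes. That of Nptx2 was lost in 6, namely within slide 2 (0.55, limma adjusted p = 0.33), without BTBR replicates 1 and 2 (0.65) and without B6 replicate 1, 2 or 4 or BTBR replicate 2 (limma adjusted p up to 0.0644). That of Csrnp1 was lost in 10, among them 6 of the 8 fits without 1 mouse and both fits within a slide (limma adjusted p up to 0.189). The list had 3 called probes without B6 replicate 1 or 2. Both probes of Bdnf, the neurotrophin, which was named after its values were seen, were lower in BTBR replicates 1 and 2 than in any other mouse, and neither was called (-0.83 on A_51_P261991 and -0.61 on A_52_P384100, limma adjusted p = 0.127 and 0.142). Both were called within slide 1 and without BTBR replicate 3 (-1.05 and -0.78 in the latter), while within slide 2 they read -0.43 and -0.30, and without BTBR replicates 1 and 2 they read -0.33 and -0.24, not called. A_51_P261991 was also called with slide as a block.

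The 4 mice that were highest in most members were also highest in 21 of its 80 probes (26.2%), which belong to 19 genes, against 3.91% of all probes. The share was 100% in the choroid plexus list, 25.0% in the cortical neuron list (4 of 16 probes), 16.7% in the endothelial list and 15.4% in the CA3 list. It was 5.88% in the thalamic and 5.26% in the astrocyte list. In the dentate, CA1, striatal, microglial, oligodendrocyte, blood and hippocampal neuron lists it was 0%. Examples, named after their values were seen, are Dusp1, a MAP kinase phosphatase, at 10.29, 11.54, 10.92 and 10.43 in B6 and 12.05, 11.43, 10.23 and 10.65 in BTBR, and the transcription factors Jund and Klf4. The list of 39 upstream regulators, which holds CREB, serum response factor, MEF2 factors and the kinases above them, had 0 called among its 69 tested probes, against 7.61% of all probes. In 2 of them (2.9%, of Prkacb and Rps6ka3, named after their values were seen) the same 4 mice were highest, against 3.91%. Its median SD between mice was 0.15, close to the 0.13 of all probes and below the 0.29 of the activity-regulated list.

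Of the marker lists of hippocampal cells, the dentate list had 2 of 13 probes called (15.4%), the microglial list 2 of 13 (15.4%), the astrocyte list 3 of 19 (15.8%), the CA3 list 1 of 13 (7.69%) and the neuronal list 1 of 19 (5.26%), against 7.61% of all probes. Stxbp6 and Trpc6 of the dentate list were lower in BTBR (-0.55 and -0.95), as was Cpne4 of the CA3 list on 1 of 3 probes, A_51_P260288, with -0.82 and -0.26 on the others, which were not called. That probe was well above background on 1 of the 4 BTBR arrays, and its difference of -1.49 was -3.82 under the processed signal and -1.02 in the deposited matrix. Gfap, the astrocyte filament gene, was lower on 3 probes (-0.49 to -1.30). Of the microglial markers Cx3cr1 was higher on 1 of 2 probes (1.41, the other at -0.10 and not called). Itgam was lower on 1 of 2 (-0.40, the other at -0.05 and not called). The called Itgam probe read -0.88 under the processed signal and -0.27 in the deposited matrix. Syt1 of the neuronal list was lower on 1 of 6 probes (-0.71). When each gene took the median of its probes, the calls of Cpne4 (-0.26), Itgam (-0.22) and Syt1 (-0.23) were lost and Cx3cr1 read 0.66. The calls of Stxbp6, Trpc6 and the Gfap probe A_52_P540991 were lost in 5, 7 and 6 of the 8 fits without 1 mouse. Over all 24 alternatives they were lost in 9, 14 and 8. The processed signal was among these for each of them (limma adjusted p = 0.0664, 0.0663 and 0.0519). The markers of CA1 pyramidal cells, cortical neurons, endothelium, oligodendrocytes, blood, striatum, thalamus and choroid plexus had no called probe.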

How the data were processed

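Total hippocampal RNA of each mouse was labeled with Cy3 and hybridized to Agilent 4X44K mouse arrays. The authors deposited the intensity of every spot as Agilent Feature Extraction gave it, unscaled between arrays (version 10.7.3.1 in the file headers, 9.1 in the submitters' processing notes). A matrix of quantile-normalized log2 values, which the authors obtained through Agi4x44PreProcess, served as an alternative. Here each spot's mean intensity was reduced by its median local background, values under 0.5 were set to 0.5, 50 was added, and log2 values of the 45018 spots were quantile normalized. Replicate spots were summarized by their median, and 154 probes with only outlier-flagged spots on an array were left out. Probes well above background on at least 75% of the arrays of 1 strain were kept.

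Limma 3.58.1 in R 4.3.3 fitted strain alone, and p was adjusted by Benjamini-Hochberg over all 27982 probes, with 0.05 as threshold. The rank product of the study's methods was not run. Members were also compared with exact permutation tests over the mice. Slide was examined as a batch. Figures were drawn with Python 3.11.15 and matplotlib 3.10.9. The limma step was tested on simulated data. Probe positions are those of the array files (mm9), gene names are those of the array design, and promoters are from RefSeq on GRCm38.p6. An annotation of mm9 was not used here, so probes are given by position without exon or intron.

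Replicates are separate mice, with 1 array each. The numbers of the replicates did not pair the arrays, since correlations of same-numbered deviations were -0.14, 0.51, -0.10 and 0.39. Named genes were the members, the called genes of the lists and the 6 nearest profiles, and genes outside this rule are marked in the text. The members and lists were chosen with earlier results of these data known. Alternatives covered background correction, offset, normalization, filter, flags, probe summary, limma prior, blocks for replicate and slide, single slides and single mice. Leaving out BTBR replicates 1 and 2, the set of 4 highest mice with its counts, and its recount under other processing were chosen after seeing the data.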

Additional observations from a re-analysis of the deposited data

Results flagged for a closer look

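Each strain holds 4 mice, and a value was listed when its gap to the nearest other mouse exceeded, as a share of the range of the strain, Dixon's 95% critical value. Of 102 sets of 4 values examined, 5 were listed, where chance gives about 1 in 20. No immediate early gene probe was among them. The striatal markers had a median of 1.17 in B6 replicate 2, against -0.97 to -0.71 in the other B6 mice. The thalamic markers had a median of -0.48 in B6 replicate 1, against -0.29 to -0.26 in the other B6 mice. The blood markers, hemoglobin genes among them, had a median of -1.02 in B6 replicate 4, against -0.02 to 0.15. These 3 medians are log2 values relative to the mean of the 8 mice. The normalized log2 intensity of the Bdnf probe A_51_P261991 was 12.25 in B6 replicate 2, against 12.68 to 12.72 in the other B6 mice. That of the Stxbp6 probe A_51_P416080 was 9.18 in BTBR replicate 2, against 9.59 to 9.67 in the other BTBR mice.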

How the results depend on the processing

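In 24 alternatives 0 immediate early gene probes were called, and the lowest limma adjusted p was 0.067, for the Egr3 probe A_52_P440836 (-0.38) without BTBR replicate 2. The direction was kept in 244 of 287 recomputed strain differences and turned in 43, none of them called. Under median centring the Junb probe A_51_P159201 read -0.0647 and Egr4 -0.0230, under the processed signal that Junb probe read -0.0137, and when each gene was given the median of its probes Junb read -0.0130 and Egr3 -0.0595. Within slide 1 the Junb probe A_51_P159194 read 0.17. Within slide 2 the values were -0.23 for Fosb, -0.17 for Junb A_51_P159201, -0.99 for Egr2, -0.19 for Nr4a1, -0.65 for Egr4, -0.27 for Egr1, -0.40 for Arc and -0.72 for Fos. Without BTBR replicates 1 and 2 they were -0.18 for Fosb, -0.27 for Junb A_51_P159201, -0.68 for Egr2, -0.16 for Nr4a1, -0.58 for Egr4, -0.21 for Egr1, -0.26 for Arc and -0.79 for Fos. With 1 mouse left out, Fos ranged from -0.31 to 0.52, Egr2 from -0.15 to 0.79, Egr4 from -0.18 to 0.32, Npas4 from -0.38 to 0.0759, Junb A_51_P159194 from -0.19 to 0.16 and Junb A_51_P159201 from -0.13 to 0.16. The cause was not tested. The count of 9 probes with the same 4 mice highest was 9 under each of the 6 other ways of processing tried.

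Over all probes, 1036 were called within slide 2, 2421 within slide 1 and 1533 to 2190 with 1 mouse left out, against 2129. With the replicate block 1650 probes were called, 0 of them members, and the call of Trpc6 was lost. The activity-regulated list had 3 calls when a gene took the median of its probes, 8 with slide as a block, 11 within slide 1, and 3 to 7 with 1 mouse left out. The upstream regulators had 1 within slide 1, and 0 to 1 with 1 mouse left out. Nab1 read -0.35 with the median over its probes. The uncalled Csrnp1 probe A_51_P326015 read 0.0816 under the processed signal, 0.15 within slide 1, and -0.0902 to 0.0215 with 1 mouse left out.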
